A study of Mus musculus with 6 samples.

Results

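The MHC class II presentation genes were followed in mouse macrophages through 7 members, H2-Aa, H2-Ab1, H2-Eb1, Cd74, Ciita, H2-DMa and H2-DMb1, taken by symbol from the 54532 genes of the deposited table. RNA had been sequenced from bone marrow-derived macrophages turned into growing lines with retroviruses that carry v-raf and v-myc, and all 6 libraries came from cells given IL-4 at 10 ng/ml for 24 hours. The cells of 3 libraries were wild type (WT), and those of the other 3 carried the genotype label 4-1BBL KO, 4-1BBL being a TNF family ligand made by activated antigen-presenting cells. Mouse strain, sex, age and the number of mice or lines behind each genotype are not stated in the labels, so the genotype and the line it was grown as cannot be told apart. The labels do not say that libraries of 1 group came from separate cultures, so a p-value covers no more than the spread among the libraries at hand, possibly a technical one. No cells without IL-4 were analysed here, so each value is a level after IL-4.

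MHC class II molecules display peptides from ingested material to CD4+ T cells. An alpha and a beta chain, H2-Aa with H2-Ab1 for the I-A molecule and H2-Eb1 as the beta chain of I-E, assemble on the invariant chain, the product of Cd74, which blocks the groove and steers the complex to endosomes. There proteases trim the invariant chain, and the H2-DM heterodimer, made from H2-DMa and H2-DMb1, exchanges the remaining fragment for a peptide. Ciita encodes the transactivator that is needed for full expression of these genes and binds no DNA itself, acting through the RFX and NF-Y factors that sit on the X and Y boxes of class II promoters. Macrophages usually hold little class II until interferon gamma, acting in part through IRF1, turns Ciita on.

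Promoter windows are shown because H2-Aa, H2-Eb1 and H2-DMb1 share this X and Y arrangement, which the choice of members did not use. RefSeq windows on GRCm38.p6, from 250 bases before to 50 after an annotated start, were used for 4 members and for 4 further class II chains. The X box core was searched as CNNGNAAC, followed on the same strand by the Y box core TGATTGG with 25 to 50 bases between their first letters. These letters were written down after the windows had been read, and the 2 motifs do not overlap. In the sequences below capitals mark the X core and then the Y core, 5′ to 3′ on the gene's own strand.
H2-Aa, chr17:34287774-34288073, minus strand: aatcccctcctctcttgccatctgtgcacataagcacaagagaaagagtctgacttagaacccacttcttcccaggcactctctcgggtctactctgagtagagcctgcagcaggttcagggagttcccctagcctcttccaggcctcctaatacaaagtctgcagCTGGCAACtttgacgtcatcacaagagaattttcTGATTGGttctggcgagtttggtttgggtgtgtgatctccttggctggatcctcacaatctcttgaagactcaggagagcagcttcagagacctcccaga
H2-Eb1, chr17:34305617-34305916, plus strand: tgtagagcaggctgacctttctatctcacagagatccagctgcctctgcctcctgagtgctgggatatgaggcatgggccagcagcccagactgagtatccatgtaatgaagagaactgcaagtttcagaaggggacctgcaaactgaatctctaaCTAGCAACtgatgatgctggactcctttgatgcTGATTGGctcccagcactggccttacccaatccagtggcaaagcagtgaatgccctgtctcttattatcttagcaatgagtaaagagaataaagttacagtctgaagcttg
H2-DMb1, chr17:34152941-34153240, plus strand: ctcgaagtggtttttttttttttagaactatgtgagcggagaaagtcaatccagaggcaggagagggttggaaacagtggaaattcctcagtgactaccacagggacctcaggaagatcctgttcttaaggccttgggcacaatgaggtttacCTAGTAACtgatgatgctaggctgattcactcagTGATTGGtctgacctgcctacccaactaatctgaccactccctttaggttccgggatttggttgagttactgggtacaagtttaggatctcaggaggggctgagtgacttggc

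The distance from the X to the Y core was 34 bases in H2-Aa, 33 in H2-Eb1 and 34 in H2-DMb1, and the Y core began 50, 61 and 63 bases before the start. The same pair was found in H2-Oa, H2-Ob and H2-Eb2, at 34, 31 and 33 bases. For the pair in these 3 genes only the stretch from core to core is shown, because H2-Oa rose with the members whereas H2-Ob and H2-Eb2 were at or near 0 in the KO-labelled libraries.
H2-Oa, within chr17:34092129-34092428, plus strand: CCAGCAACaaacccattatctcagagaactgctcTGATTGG
H2-Ob, within chr17:34238655-34238954, plus strand: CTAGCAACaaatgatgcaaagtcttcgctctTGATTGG
H2-Eb2, within chr17:34325425-34325724, plus strand: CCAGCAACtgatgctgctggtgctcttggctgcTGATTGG
Of 32851 windows in the RefSeq table, 7.82% held TGATTGG on either strand and 39.1% held CNNGNAAC. The spaced pair was in 0.201% on either strand and in 0.110% on the sense strand. As the letters were set after the class II windows had been read, these shares do not test the pair. Neither of the 2 tabulated windows of H2-DMa held the pair. They lie at chr17:34122582-34122881 and chr17:34125268-34125567, the first reaching into Brd2, in a gene annotated up to 34139101. Which start of H2-DMa is used in these cells was not tested, so these windows do not show that its promoter lacks the pair. The window of H2-DMb2 held no pair either, but it held TGATTGG after ctattaac, which has t where the X core asks for G. A match is a run of letters and not a measured binding site.

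The 6 libraries held 19.1 to 26.4 M fragments, as recovered from the deposited FPKM (fragments per kilobase of gene and per M mapped fragments). Whether this total covers all mapped fragments or only those assigned to genes was not tested. The 2 groups differed widely outside the class II genes. In limma on log2(FPKM + 1), with genes of at least 1 FPKM on average tested and Benjamini-Hochberg adjustment, 60.8% of 10843 genes passed an adjusted p of 0.05, 30.6% higher and 30.2% lower in KO-labelled libraries. Tnfsf9, the gene of 4-1BBL, was at 14.6, 10.4 and 12.05 FPKM in WT and at 10.7, 10.7 and 11.4 FPKM in KO-labelled libraries, so its transcript level does not check the label. The exact two-sided permutation p was 0.4, where 0.1 is the smallest that 3 against 3 libraries allow. Transcripts of the Y-linked gene Ddx3y were at 9.92 to 12.1 FPKM in KO-labelled libraries, against 1 fragment over all WT libraries. Of 8 macrophage markers 3 were higher, 4 lower and 1 did not pass. Adgre1, the gene of F4/80, was at 11.8 ± 0.625 and 268 ± 6.07 FPKM, Cd14 at 292 ± 5.68 and 45.8 ± 2.64 FPKM, and Mertk had 2 fragments in WT and 1197 in KO-labelled libraries (SD, n = 3). The 8 summed to 2157 to 2208 FPKM in WT libraries, against 1199 to 1259 FPKM in KO-labelled ones.

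**Figure D1:**
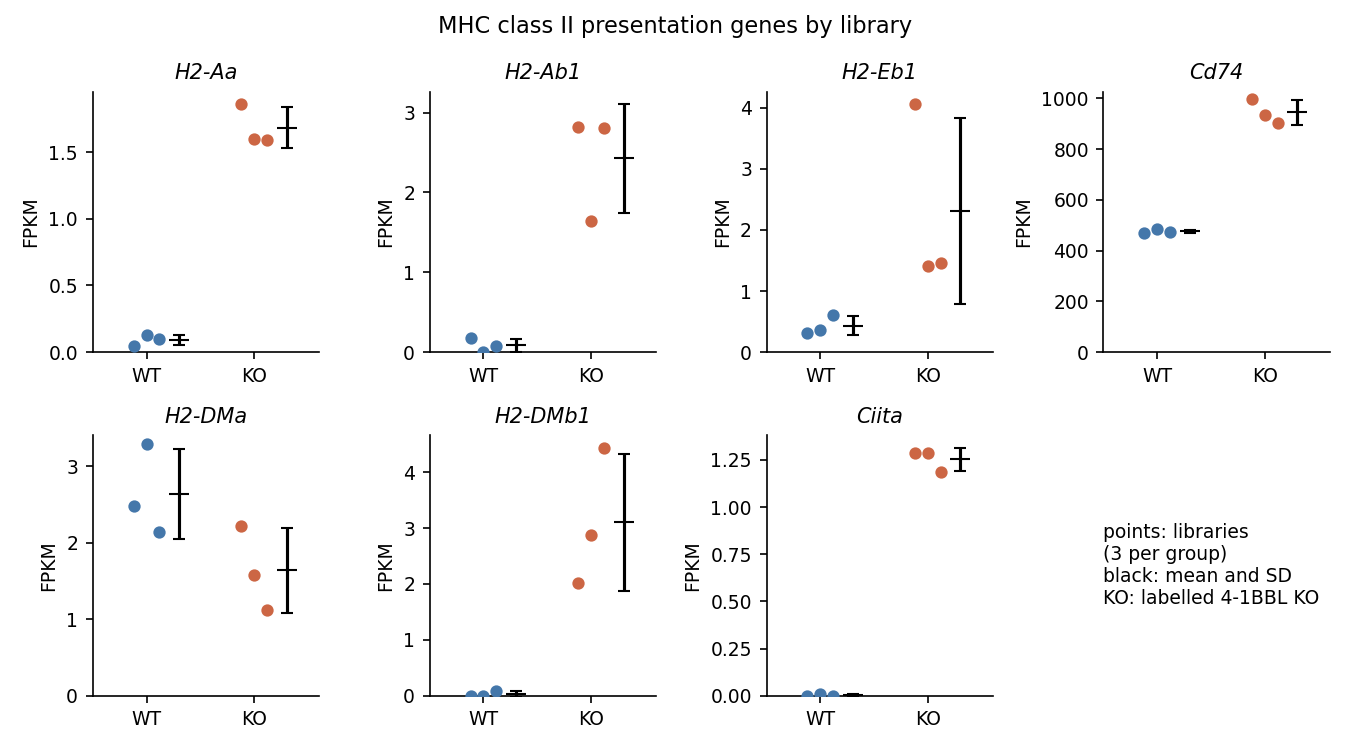
FPKM of each of the 7 class II presentation genes (vertical axes, each from 0) in the 3 WT and the 3 KO-labelled libraries, with 1 point per library and the mean and SD in black. Cd74 lies far above the rest in both groups while no other member exceeds 5 FPKM, and H2-DMa is the only member whose groups overlap.

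Ciita, the regulator, was close to absent in WT cells and low in KO-labelled cells. It was at 0, 0.0101 and 0 FPKM in WT replicates 1 to 3 and at 1.29, 1.29 and 1.18 FPKM in the KO-labelled ones. The WT values rest on 2 fragments in all, both in replicate 2, and the KO-labelled values on 324, 242 and 216 fragments. All 3 KO-labelled libraries were above all WT libraries, and they differed from each other by less than their counting error. The depth-adjusted ratio of fragments was 386, with a 95% interval from 106 to 3192 that covers counting error only. Without WT replicate 2 no WT fragment was left, and the ratio of mean FPKM moved from 372 to 248 without either of the other WT libraries. Ciita had a mean of 0.628 FPKM over the 6 libraries and was not among the genes tested. When every gene above 0 in any library was tested, its log2 fold change on the FPKM + 1 scale was 1.17 ± 0.06 (SE), with an adjusted p of 3.59e-05 in limma. On recovered fragments with limma-voom, an alternative added after seeing the data, the log2 fold change was 8.22 ± 0.67 (SE) and the adjusted p 3.74e-07. The gene-level values do not separate the transcripts that start at its different promoters. In the annotation 3.45% of its exon length is shared with Dexi on the other strand, which was at 2.37 ± 0.823 and 3.51 ± 0.422 FPKM (SD, n = 3 each).

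Cd74, the invariant chain gene, was by far the most abundant member and was abundant also in the WT libraries, where Ciita had 2 fragments. It was at 471, 484 and 473 FPKM in WT and at 998, 936 and 901 FPKM in KO-labelled libraries. The groups were well apart, with means of 476 ± 7.11 and 945 ± 49.2 FPKM (SD, n = 3 each), a 1.99-fold difference. On the log2 scale it differed by 0.99 ± 0.05 (SE; 95% interval 0.88 to 1.10; limma adjusted p = 3.30e-06). By FPKM it stood at rank 69 to 71 of all genes in the WT libraries and at rank 16 to 20 in the KO-labelled ones. Over the WT libraries Cd74 had 43181 fragments.

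The chains of the I-A molecule were nearly silent in WT and low in KO-labelled cells. H2-Ab1 was at 0.172, 0 and 0.0823 FPKM in WT and at 2.82, 1.64 and 2.81 FPKM in KO-labelled libraries, from 9 and 263 fragments. All KO-labelled libraries lay above all WT ones, with replicate 2 the lowest of them. H2-Ab1 reached the level for testing only through the KO-labelled group. Its log2 fold change was 1.64 ± 0.17 (SE; limma adjusted p = 0.000175, and 0.0008 with every gene above 0 tested). The ratio of fragments was 28.8 with a counting interval from 15.0 to 63.8. Its size rests on few WT fragments, and the ratio of mean FPKM moved from 28.7 to 58.9 without WT replicate 1 and to 19.1 without WT replicate 2. H2-Aa, the alpha chain, was at 0.04996, 0.129 and 0.0959 FPKM in WT and at 1.86, 1.599 and 1.59 FPKM in KO-labelled libraries, from 11 and 208 fragments. Its groups did not overlap either, and the ratio of fragments was 18.7 with a counting interval from 10.2 to 38.0. With a mean of 0.887 FPKM it was below the level for testing. Among all genes its log2 fold change was 1.30 ± 0.08 (SE; limma adjusted p = 8.54e-05), and on recovered fragments it was 4.10 ± 0.59 (SE; voom adjusted p = 7.57e-05).

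H2-Eb1, the I-E beta chain, was also higher, but its size turned on 1 library. It was at 0.316, 0.366 and 0.607 FPKM in WT and at 4.06, 1.42 and 1.46 FPKM in KO-labelled libraries. KO-labelled replicate 1 was 2.87 times the lowest of its group, and its counting interval of 3.39 to 4.84 FPKM lay above those of the other two, which reached 1.99 and 2.05 FPKM. H2-Eb1 reached the level for testing only through the KO-labelled group. The log2 fold change was 1.13 ± 0.29 (SE; limma adjusted p = 0.0131, and 0.0359 with every gene above 0 tested). The ratio of mean FPKM was 5.38 with all libraries and 3.34 without KO-labelled replicate 1, where the log2 fold change was 0.77 and the adjusted p 0.00439. H2-Ea-ps, which stands for the I-E alpha chain in this reference and is a pseudogene in some mouse strains, was at 0 in all 6 libraries, which allows up to 0.110 to 0.151 FPKM (3 fragments per library).

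The 2 chains of the peptide exchange factor H2-DM went apart. H2-DMb1 was at 0, 0 and 0.0907 FPKM in WT and at 2.02, 2.87 and 4.43 FPKM in KO-labelled libraries. No library of 1 group reached the other, but the KO-labelled libraries spread 2.20-fold, with replicate 1 the lowest and replicate 3 the highest. The ratio was 95.1 from 3 and 289 fragments (counting interval 32.2 to 464, with all WT fragments in replicate 3). H2-DMb1 reached the level for testing only through the KO-labelled group. Its log2 fold change was 1.95 ± 0.21 (SE; limma adjusted p = 0.000203, and 0.00109 with every gene above 0 tested). H2-DMa was at 2.48, 3.29 and 2.13 FPKM in WT and at 2.22, 1.58 and 1.11 FPKM in KO-labelled libraries. These groups overlapped, since KO-labelled replicate 1 lay above WT replicate 3. Its log2 fold change was -0.47 ± 0.18 (SE; limma adjusted p = 0.0587) and did not pass, but without KO-labelled replicate 1 it was -0.63 with an adjusted p of 0.0213. In the annotation 10.4% of the exon length of H2-DMa is shared with Brd2 on the other strand. Brd2 was at 40.6 ± 0.503 FPKM in WT libraries, against 32.7 ± 1.67 FPKM in KO-labelled ones (SD, n = 3). The shortest length that fits the H2-DMa values is 1641 bases, against 3448 in the annotation. The shared stretch may thus not have been counted, and its part in the H2-DMa value was not tested. H2-DMb1 has a near-identical copy, H2-DMb2, with 97.0% identity over 571 aligned bases, so how fragments were divided between them is uncertain. H2-DMb2 itself was at 0.159 ± 0.204 FPKM in WT libraries, against 0.247 ± 0.0379 FPKM in KO-labelled ones (SD, n = 3).

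Of the 7 members, 5 reached the level for testing and 4 of these passed as higher, none as lower. Over all tested genes 60.8% passed, 30.6% as higher. H2-Ab1, H2-Eb1 and H2-DMb1 reached that level only through the group in which they are high, so this count carries no weight beyond the single values. Without a filter 6 of 7 passed as higher, beside 18.7% of 20848 genes (35.6% in either direction), and with voom on every gene with a fragment 6 of 7, beside 20.9% of 20834 (40.4% in either direction). Every KO-labelled library lay above every WT library for 6 of 7 members and for 24.4% of all genes above 0 in any library. Among the genes tested this held for 34.1%, and 67.4% did not overlap in either direction.

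**Figure D2:**
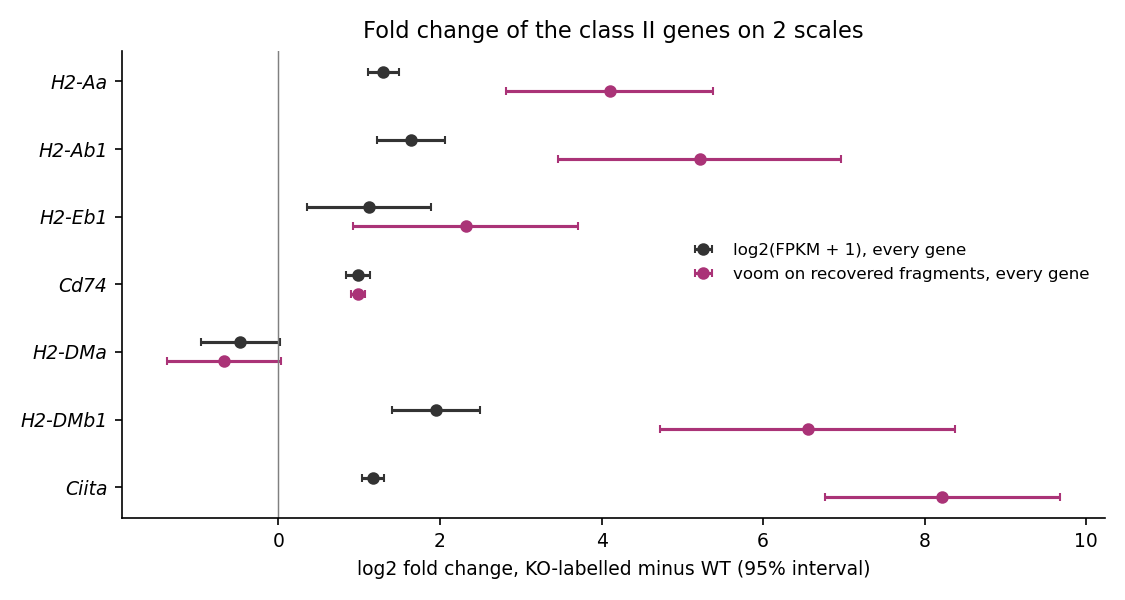
Log2 fold change of each class II gene, KO-labelled minus WT (horizontal axis, with 95% intervals), from limma on log2(FPKM + 1) and from voom on recovered fragments, both over every gene with a value. The scales give nearly the same value for the abundant Cd74 (0.99 on each), and far apart ones for members near 0 in WT, such as Ciita (1.17 and 8.22).

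The order of levels, which FPKM give per length of gene, changed between the groups. In WT it ran from Cd74 to H2-DMa, H2-Eb1, H2-Aa, H2-Ab1, H2-DMb1 and Ciita, with the last 4 overlapping their neighbours. In KO-labelled libraries Cd74 again stood far above the rest, and the other 6 ran from H2-DMb1 at 3.11 ± 1.23 FPKM to Ciita at 1.25 ± 0.0603 FPKM (SD, n = 3) with every neighbouring pair overlapping. Cd74 exceeded H2-Ab1 by 353, 569 and 321 times in KO-labelled replicates 1 to 3. The summed level of H2-Aa, H2-Ab1 and H2-Eb1 was 0.495 to 0.785 FPKM in WT libraries, against 4.66 to 8.75 FPKM in KO-labelled ones. In bulk RNA a few cells with much transcript and many cells with little cannot be told apart.

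Set against Ciita within the KO-labelled libraries, the members did not keep a common proportion. H2-Aa was at 1.44, 1.24 and 1.34 times the Ciita FPKM in replicates 1 to 3, and Cd74 at 775, 726 and 761 times. H2-Ab1, the partner of H2-Aa, was at 2.19, 1.28 and 2.37 times. The ratios of H2-Aa and Cd74 to Ciita were thus nearly the same in these 3 libraries, whereas that of H2-Ab1 was not. H2-Eb1 was at 3.16, 1.10 and 1.23 times, H2-DMa at 1.72, 1.22 and 0.942 times and H2-DMb1 at 1.57, 2.23 and 3.75 times, so the first pair was highest in replicate 1 and H2-DMb1 in replicate 3. Ciita itself hardly varied, with a coefficient of variation of 4.81%, against 5.21% for Cd74, 9.13% for H2-Aa, 27.9% for H2-Ab1, 33.8% for H2-DMa, 39.5% for H2-DMb1 and 65.6% for H2-Eb1. As Ciita varied so little, a ratio to it mostly restates the spread of the other gene and shows no relation to Ciita. With 3 libraries a group no correlation with Ciita is given, and across both groups the points fall into 2 clusters.

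**Figure D3:**
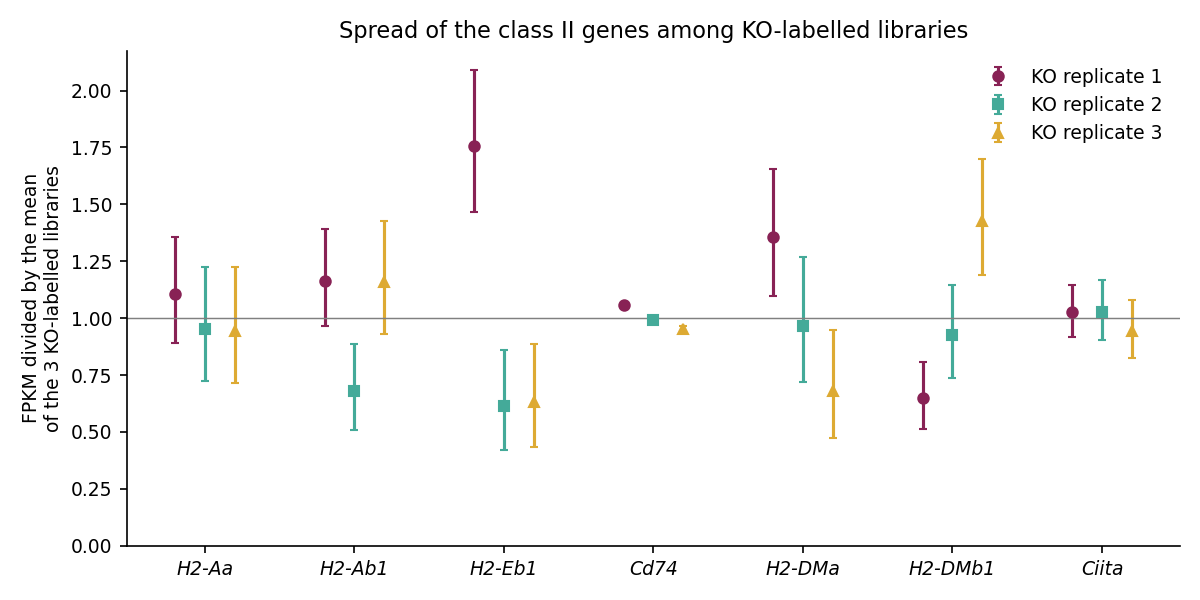
FPKM of each class II gene in the 3 KO-labelled libraries divided by their mean (vertical axis), with 1 symbol per replicate and exact 95% Poisson counting intervals as bars. Ciita, Cd74 and H2-Aa stay near 1, H2-Eb1 stands out in replicate 1 and H2-DMb1 is lowest in replicate 1 and highest in replicate 3.

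Among the other class II chains, H2-Oa, the alpha chain of the H2-DM inhibitor H2-O, rose from 0.582 ± 0.149 to 3.40 ± 0.941 FPKM (SD, n = 3), with a log2 fold change of 1.46 ± 0.16 (SE; limma adjusted p = 0.000256). It too reached the level for testing only through the KO-labelled group. It was at 0.677, 0.660 and 0.410 FPKM in WT and at 4.47, 2.71 and 3.02 FPKM in KO-labelled libraries, with no overlap. The annotation gives it 22.8% of exon length in common with BC051537 on the other strand, which stayed below 0.1 FPKM on average in both groups. The shortest length that fits the H2-Oa values is 1314 bases, against 1407 in the annotation. How much of the shared stretch was counted is therefore not known. H2-Ob, its partner chain, had 4, 0 and 15 fragments in the WT libraries and none in the KO-labelled ones. H2-Eb2 was at 0 in all 6 libraries, which allows up to 0.0335 to 0.0462 FPKM. The list of 5 further chains thus held 1 tested gene.

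Genes of invariant chain cleavage and antigen processing were abundant in both groups and mostly somewhat higher where the label was KO. Their list, like the lists that follow, was chosen with earlier results of these data known. Among 7 tested genes 6 rose, 1 missed the threshold and none fell. Their median log2 fold change was 0.37, beside 0.01 for all tested genes, of which 30.6% rose. Ctsl, a protease that cleaves the invariant chain in thymic epithelium, rose most, from 32.4 ± 1.51 to 72.0 ± 3.22 FPKM (SD, n = 3; limma adjusted p = 3.27e-06). Ifi30, the lysosomal thiol reductase, rose from 219 ± 3.09 to 296 ± 43.3 FPKM and Sppl2a, the protease that removes the last invariant chain stub, from 10.3 ± 0.583 to 14.1 ± 0.888 FPKM (limma adjusted p = 0.0105 and 0.0015). Ctss, the main invariant chain protease of macrophages and dendritic cells, rose from 237 ± 7.72 to 286 ± 16.0 FPKM (SD, n = 3).

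Of 7 tested genes for the factors that hold Ciita on class II promoters 3 rose, 1 fell and 3 missed the threshold, a share of calls near the 60.8% of all tested genes. Their median log2 difference was 0.12. None of the 3 RFX subunits passed with all libraries, though Rfxap did without KO-labelled replicate 3 (log2 fold change 0.21, limma adjusted p = 0.0270). Rfx5 was at 3.23 ± 0.0811 and 3.58 ± 0.404 FPKM, Rfxank at 1.58 ± 0.395 and 1.81 ± 0.435 FPKM and Rfxap at 8.58 ± 0.353 and 9.29 ± 1.43 FPKM in WT and KO-labelled libraries (SD, n = 3). Of the NF-Y subunits Nfyb fell from 5.26 ± 0.285 to 3.64 ± 0.242 FPKM (limma adjusted p = 0.00173), and Nfyc rose from 14.2 ± 0.644 to 17.6 ± 2.31 FPKM (adjusted p = 0.0352). The call for Nfyc was lost without a filter (adjusted p = 0.0711), under quantile normalization (adjusted p = 0.0516) and without any of 5 single libraries (adjusted p of 0.0543 to 0.102). Creb1, a factor of the X2 box, rose from 5.08 ± 0.0652 to 6.17 ± 0.176 FPKM (adjusted p = 0.00829). The remaining riser, Nfya, lost its call without WT replicate 2 or WT replicate 3 (limma adjusted p = 0.0598 and 0.0578).

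The list of genes that act upstream of Ciita was also chosen with earlier results of these data known. Among its 9 tested genes 7 rose, 2 missed the threshold and none fell, beside 30.6% higher and 30.2% lower of all tested genes. Their median log2 difference was 0.69. The interferon regulatory factor gene Irf1 was at 2.46, 2.38 and 2.14 FPKM in WT and at 11.2, 11.02 and 9.19 FPKM in KO-labelled libraries. Its groups were far apart, with a log2 fold change of 1.78 ± 0.09 (SE; limma adjusted p = 4.09e-06). Jak2, a kinase of the interferon gamma receptor, rose from 13.5 ± 1.03 to 42.6 ± 3.54 FPKM and Irf2 from 4.18 ± 0.457 to 8.33 ± 0.163 FPKM (SD, n = 3; limma adjusted p = 3.84e-06 and 8.26e-05). The receptor chains Ifngr1 and Ifngr2 rose 1.67-fold and 1.65-fold. Below the level for testing, Prdm1, which encodes a repressor of Ciita in plasma cells, had 1 fragment in WT and 266 in KO-labelled libraries, where it was at 0.732 ± 0.0843 FPKM. Irf4 was at 0.377 ± 0.123 and 0.471 ± 0.172 FPKM (SD, n = 3).

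Of the turnover genes, Cd83, whose protein shields class II from ubiquitination, fell from 9.34 ± 0.174 to 7.66 ± 0.583 FPKM (SD, n = 3; limma adjusted p = 0.0114), a call lost with voom on every gene with a fragment (adjusted p = 0.0532). March8, a ubiquitin ligase of class II, was at 8.30 ± 0.326 and 8.20 ± 0.777 FPKM, and its 95% interval of the log2 difference ran from -0.20 to 0.16. March1, the ligase best known from dendritic and B cells, was below the level for testing, at 0.0244 ± 0.0320 and 0.175 ± 0.0789 FPKM (SD, n = 3). Over all these pathway lists 17 of 26 tested genes rose and 2 fell, beside 30.6% and 30.2% of all tested genes. The risers include H2-Oa, tested only through the KO-labelled group. As the lists were chosen with earlier results known, these counts carry no weight beyond the single values.

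**Figure D4:**
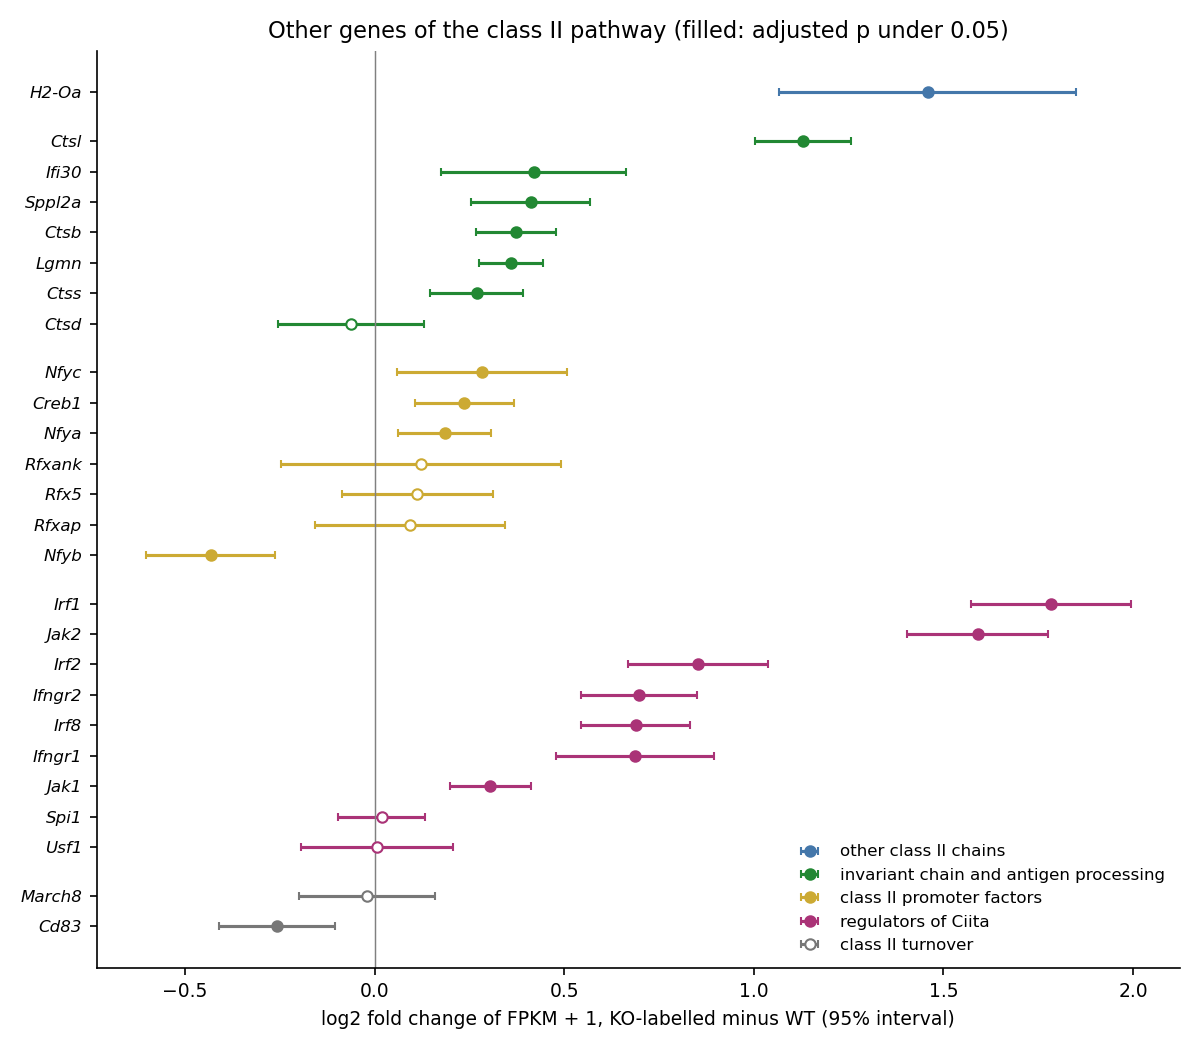
Log2 fold change of FPKM + 1, KO-labelled minus WT, with 95% intervals (horizontal axis) for the 26 tested genes of the class II pathway outside the 7 members, coloured by role, filled where the adjusted p is under 0.05. Irf1, Jak2, H2-Oa and Ctsl lie farthest to the right, and the RFX subunits lie across 0.

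Other cell types that carry class II were checked by their markers. Of 8 dendritic cell markers 4 (Clec9a, Cd209a, Ccr7 and Siglech) were at 0 in every library, none reached the level for testing, and their summed level was 0.475 to 0.797 FPKM in WT libraries, against 0.340 to 0.526 FPKM in KO-labelled ones. Of 7 B cell markers 3 (Ms4a1, Blk and Fcer2a) were at 0 in every library. The summed B cell level was 48.3 to 53.1 FPKM in WT libraries, against 2.48 to 3.27 FPKM in KO-labelled ones, which came mainly from Ighm at 49.6 ± 2.70 and 1.41 ± 0.326 FPKM (SD, n = 3). Cd79b went the other way, at 0.230 ± 0.183 and 1.54 ± 0.203 FPKM. Pax5 had 1 fragment, in KO-labelled replicate 3, and Cd79a had 12 fragments in WT and 4 in KO-labelled libraries. The B cell list was thus mixed.

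Most of the members lie close together on chromosome 17. The stretch of 252.3 kb from H2-Oa to H2-Ea-ps, 34092340 to 34344645 in mm10, holds 10 class II genes of the table and 10 others, of which 5 were tested. Of these 5, 4 rose and 1, the bromodomain gene Brd2, fell, where 60.8% of all tested genes were called. The immunoproteasome gene Psmb9 rose from 2.19 ± 0.733 to 4.79 ± 0.345 FPKM, its companion Psmb8 from 9.73 ± 1.27 to 14.9 ± 0.747 FPKM and the peptide transporter gene Tap1 from 4.20 ± 0.432 to 6.18 ± 0.626 FPKM (SD, n = 3; limma adjusted p of at most 0.00409). The rises were thus not shared by every gene of the stretch, as the values of H2-DMa and Brd2 show. H2-DMb2 cannot decide this. It had 18 fragments in WT, 15 of them in replicate 3, and 28 in KO-labelled libraries (counting interval of the ratio 0.820 to 2.95). Ciita lies apart at 10480059 to 10528418 on chromosome 16 and Cd74 at 60803848 to 60812652 on chromosome 18.

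**Figure D5:**
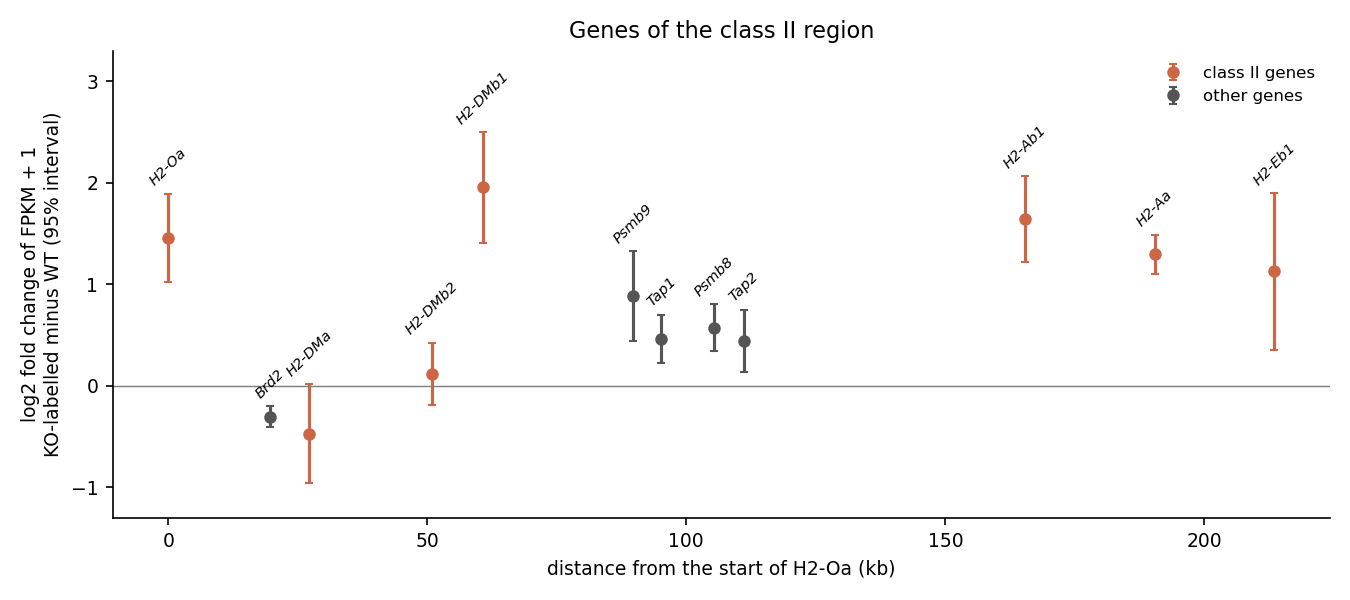
Log2 fold change of FPKM + 1, KO-labelled minus WT, with 95% intervals (vertical axis) for protein-coding genes of the class II region with a mean of at least 0.1 FPKM, by distance from the start of H2-Oa (horizontal axis, kb). H2-DMa (-0.47) and Brd2 lie below 0 next to each other, and H2-DMb1 (1.95) is the highest.

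Profiles like that of Ciita were sought by the root mean square difference of log2(FPKM + 1), centred on the mean of each gene, over the 6 libraries and 9649 tested protein-coding genes outside the lists. The nearest were Litaf at 0.0287, Sord at 0.0367 and Rhoq at 0.0391 log2 units. Litaf, which encodes an endosomal membrane protein, rose from 22.9 ± 0.658 to 53.1 ± 0.164 FPKM (SD, n = 3) and lies on the same chromosome as Ciita, with 431 kb between them. Nearest to H2-Ab1 were Tmem221 at 0.111, Optn at 0.127 and Mfap1a at 0.132 log2 units. Each of them reached the level for testing only through the KO-labelled group, with WT means of 0.0395, 0 and 0.818 FPKM. Optn, an autophagy receptor gene, was at 0 in WT and at 2.00, 1.64 and 2.66 FPKM in KO-labelled libraries. On this scale a profile near Ciita is a like step of about 1 log2 unit, which for Ciita rests largely on the added 1 FPKM. Ciita itself was below the level for testing, so genes with a mean as low as its own were not compared.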

How the data were processed

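The authors deposited FPKM for each Ensembl gene, in 1 file per library (6 in all). The tools featureCounts 1.5.0-p3 and HISAT2 2.0.5 and the build mm10 are named in the submitters' processing notes. No source used here gives the annotation release, the strand setting or the treatment of multiply mapped reads, so antisense overlap may add to a gene. Per the labels' protocols, the RNA was poly(A)-selected.

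Symbols came from GENCODE M21 on the same build (54495 of 54532 matched). Fragments were recovered by finding the gene length at which FPKM became whole in all 6 libraries, within 0.1 fragments plus rounding: the M21 exon length for 53755 genes, and otherwise the shortest fitting length (736 genes, 715 of them on chromosomes 17 to 19). All members but Ciita are among the latter, so their fragment numbers are the smallest that fit. For H2-Aa and H2-DMa double the fitted length is still under the annotated exon length, so their fragment numbers could all be double.

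Tests, KO minus WT on log2(FPKM + 1), were made with limma 3.58.1 (R 4.3.3), its variance prior following the mean level, and were tested on simulated data. Counting intervals (95%, Poisson, or conditional binomial for ratios) cover counting error only. Near-identical copies were sought with BLAST+ 2.17.0+, at 95% identity over 80% of the shorter transcript and 150 bases. The named genes were all members, the 3 largest changes of each pathway list, the 3 nearest profiles to Ciita and H2-Ab1 and the 3 largest changes among chromosome 17 neighbours. Others (RFX subunits, Nfya, Ctss, the receptor chains, genes under the filter, Brd2 and markers) were named after their values were seen. Members and lists were chosen with earlier results of these data known, and 2 list genes are not reported here.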

Additional observations from a re-analysis of the deposited data

How the results depend on the processing

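The alternatives were a pseudocount of 0.1, no filter, a filter at 5 FPKM, TPM, quantile normalization, voom, the replicate number as a block, and leaving out each library. Over all genes 6594 of 10843 tested passed in the main fit, and from 5835 to 6446 of them without single libraries. The lowest count was 4710 of 7290 with a filter at 5 FPKM and the highest 8418 of 20834 with voom without a filter. These counts thus differ also in the number tested. The count of members was 4 of 5 tested, then 6 of 7 without a filter and with voom without a filter (added after seeing the data). It was 5 of 5 under quantile normalization, under the block and without KO-labelled replicate 1, each time with H2-DMa added as lower. With a filter at 5 FPKM it was 1, because only Cd74 could be tested. Leaving out single libraries gave 4 to 5 members and 17 to 19 of the 26 other pathway genes tested, against 19. Same-numbered libraries did not deviate together (correlations of -0.03, 0.05 and -0.03), and with the replicate block 6194 genes, 5 members and 18 pathway genes passed. H2-DMa had an adjusted p of 0.0439 under quantile normalization and 0.0421 under the block, where the call for Nfyc was lost (0.0632), in limma. Spi1, not called in the main fit, passed as higher under quantile normalization (log2 fold change 0.18, limma adjusted p = 0.0166). Some genes that did not pass changed sign. In log2 units, Ctsd was at 0.032 with TPM and 0.14 under quantile normalization, Usf1 at -0.018 under quantile normalization and March8 at 0.070 with TPM. Without single libraries Ctsd ranged from -0.12 to 0.034, Rfxank from -0.0018 to 0.24, Usf1 from -0.079 to 0.064, Spi1 from -0.025 to 0.051 and March8 from -0.069 to 0.050. The cause was not tested. Depth limits the WT values of Ciita, H2-Aa, H2-Ab1 and H2-DMb1, which rest on 11 fragments or fewer each.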

Other observations

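Of 6 tested class I presentation genes 5 rose in the KO-labelled libraries and 1 did not pass, beside 30.6% higher of all tested genes. This list too was chosen with earlier results of these data known. H2-K1, a classical class I heavy chain gene, rose from 12.3 ± 1.04 to 162 ± 1.98 FPKM, B2m, the shared light chain gene, from 400 ± 6.41 to 978 ± 91.5 FPKM and H2-D1 from 81.7 ± 0.476 to 190 ± 8.98 FPKM (SD, n = 3; limma adjusted p of at most 5.58e-06). Nlrc5, the class I counterpart of Ciita, rose from 1.36 ± 0.186 to 4.18 ± 0.169 FPKM (limma adjusted p = 3.71e-05). Unlike Ciita it was detected in every WT library, with 742 fragments over the 3.

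Within 500 kb of Ciita on chromosome 16, a window chosen after seeing the data, 6 further genes were tested, of which 3 rose and 3 did not pass, beside 30.6% higher of all tested genes. Rmi2 and Socs1 reached the level for testing only through the KO-labelled group. The risers were Litaf, Rmi2 (0.316 to 4.79 FPKM) and Socs1, a feedback inhibitor of cytokine signalling (0.870 to 10.5 FPKM), whereas Clec16a, 16.9 kb from Ciita, was at 5.77 and 5.65 FPKM in WT and KO-labelled libraries.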
